A study of Drosophila melanogaster with 3 samples.

Results

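Chromosome arm 3R carried 1068 of the 4230 ORC2 sites (25.2%) in the authors' list for the whole series. A site here is a peak of that list whose sequence name is 3R, and a peak is an interval in the list of 1 sample. The lists of replicate 1 and replicate 2 had 1610 and 1730 peaks on the arm. Every one of the 1068 sites spanned the outer edges of overlapping peaks of both replicates, so each had support from both samples by the way the list was made. ORC2 was mapped by chromatin immunoprecipitation and sequencing in S2-DRSC, a male Drosophila melanogaster line derived from late embryos and grown asynchronously without a treatment named in the labels. The antibody was a rabbit polyclonal serum against full-length ORC2. There were 2 ORC2 samples from separate extractions and 1 input sample, whose values were not analysed here. The labels do not say whether each extraction had its own culture. Differences between the replicates may thus be technical, and a single cell line was sampled.

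ORC2 belongs to the origin recognition complex, a set of proteins that binds DNA before S phase and is the platform on which the replicative helicase is loaded. In Drosophila the complex has no strict sequence signature and is found mainly in accessible chromatin, often near promoters of active genes. Where its sites crowd together or are lacking describes where along a chromosome replication could be licensed. Arm 3R holds both Hox gene clusters of the fly, the Antennapedia and the bithorax complex. Genes at the sites below were not identified, because positions in the files are those of FlyBase release 5, and no annotation of that release was used. For the same reason no sequence of a site is shown.

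Each peak comes with its position and a score but no read count, so depth is unknown. The score of a replicate peak is the number the authors' peak caller wrote, used here to rank and describe peaks within a list. For the 1035 sites made of 1 peak of each replicate, the site score was the mean of the replicate scores. A site score is thus no separate measurement beside them. Many peaks of a replicate had the same score. The 1610 peaks of replicate 1 had 718 different scores, with 46 peaks at 3.87, and the 1730 of replicate 2 had 890, with 49 peaks at 3.46. With 1 group of 2 samples, no difference between arms or along the arm was tested, and arm copy number was left uncorrected.

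Sites on 3R lay at 38.3 per Mb, the arm being measured to its last peak at 27.9 Mb. The other large arms had 32.9 per Mb on 2L, 33.2 on 3L, 33.2 on X and 37.0 on 2R. In replicate 1 alone 3R had 57.8 peaks per Mb, against 51.8 to 57.3 on the other arms. In replicate 2 it had 62.1, below the 63.7 of 2R and above the 56.4 to 60.3 of the rest. The place of 3R as the densest arm thus held for the sites and for replicate 1, but not for replicate 2. The sites covered 264 kb, or 0.947% of the arm, against 0.853 to 0.893% on the other arms.

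Peaks of 3R were often found in both samples. With an overlap of 1 bp or more, 1085 of the 1610 replicate 1 peaks had a partner in replicate 2 (67.4%, exact binomial 95% limits 65.0 and 69.7%), against 62.9% over all sequences. Among the 1730 replicate 2 peaks, 1086 had a partner in replicate 1 (62.8%, limits 60.4 and 65.1%), against 58.0% over all sequences. These shares were above those of each other large arm, which ran from 61.4 to 65.6% in replicate 1 and from 55.7 to 59.7% in replicate 2. The intervals of 3R overlapped those of 2R and X in replicate 1 and those of 2L, 2R and 3L in replicate 2. They count peaks as independent, although peaks lie in clusters, and they cover counting error only.

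Width set apart the peaks found in both samples. Of the replicate 1 peaks on 3R under 50 bp, 24.4% were shared (20.3% on the other large arms), rising to 52.3% (48.3%) at 50 to 99 bp and 88.4% (85.7%) at 100 to 199 bp. At 400 bp or more, 101 of 102 were shared. In replicate 2 the same classes on 3R had 21.2%, 45.2% and 82.2%, against 15.6%, 42.0% and 76.6% on the other arms, and 109 of 111 at 400 bp or more. In each class of width and in both replicates the share on 3R was above that of the other arms combined. Unshared peaks on 3R were narrow, with a median of 48 bp in replicate 1 and 54 bp in replicate 2, against 142 bp and 155 bp for shared ones. A wide interval is also more likely to touch another, and the shares were not corrected for that.

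**Figure D1:**
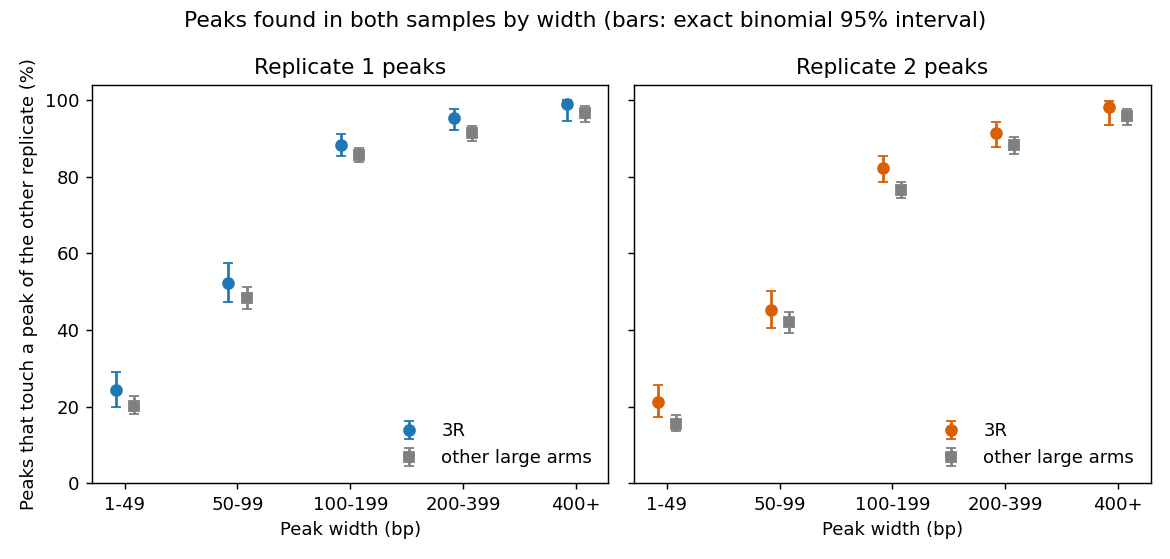
Share of peaks (%) that touch a peak of the other replicate, by peak width in bp, for 3R (coloured circles) and the other 4 large arms combined (grey squares); bars are exact binomial 95% intervals. Shares on 3R rise from 24.4% under 50 bp to 99.02% at 400 bp or more in replicate 1, and from 21.2% to 98.2% in replicate 2.

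The scores of the samples were close where a single peak of one overlapped a single peak of the other, which was so for 1035 of the 1068 sites. Over these 1035 pairs Spearman's rho of the scores was 0.786 and Pearson's r, on log10 scores, was 0.820, against a rho of 0.755 to 0.794 on the other large arms. The pairs share the cell line, and any control used for both lists, so these are descriptions. Scores were within 1.5-fold for 925 pairs (89.4%, against 88.9% over the large arms). In 4 pairs (0.386%, against 0.756 to 1.81% on the other large arms) they were more than 2-fold apart. Replicate 2 scored higher in 653 pairs (63.1%, against 61.8% over the large arms). Over all 1035 pairs the log2 ratio of replicate 2 to replicate 1 had a median of 0.11 and an SD of 0.33. Peak centres in the replicates were a median of 18.5 bp apart, and more than 100 bp apart in 75 of the 1035 pairs. On the other large arms this was so for 51 of 739 pairs (2L), 44 of 762 (2R), 67 of 794 (3L) and 61 of 717 (X).

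**Figure D2:**
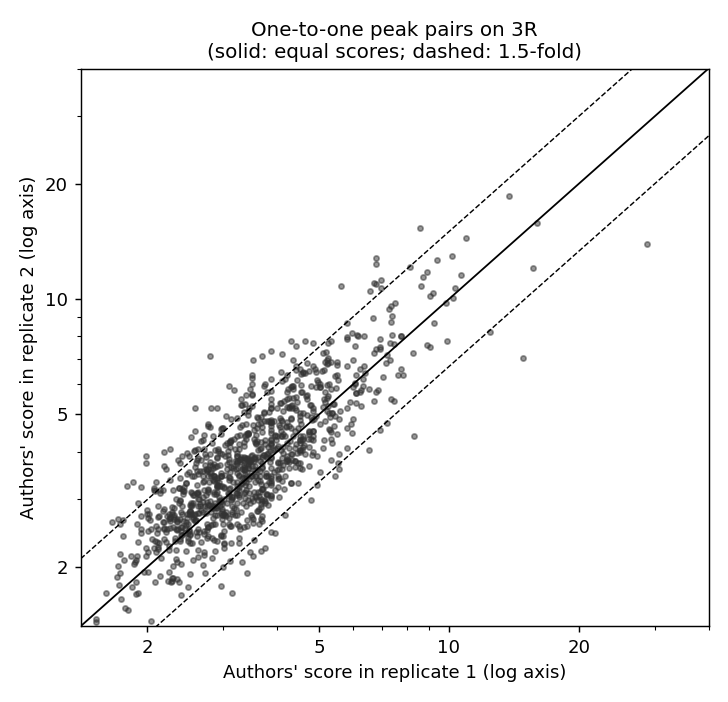
Authors' score in replicate 2 against that in replicate 1 (log axes) for the 1035 one-to-one peak pairs on 3R; each point is a pair, the solid line marks equal scores and the dashed lines a 1.5-fold difference. Most points lie between the dashed lines, and the point farthest to the right, at 28.8 in replicate 1 and 13.9 in replicate 2, lies below them.

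Sites on 3R were short and their scores had a narrow spread. The median width was 188 bp (interquartile range 125 to 297 bp, lowest 18 bp, highest 1441 bp), against medians of 184 to 205 bp on the other large arms. The median score was 3.49 (2.86 to 4.50), the lowest of the large arms, where the others ran from 3.57 on 3L to 4.04 on X. In replicate 1 alone 3R was also the lowest, at 3.23 against 3.27 to 3.91. In replicate 2 it was 3.50, above the 3.43 of 3L. Width and score were nearly unrelated on the arm (Spearman's rho -0.01 across 1068 sites): the median score was 3.51 under 100 bp, 3.55 at 100 to 199 bp, 3.43 at 200 to 399 bp, 3.60 at 400 to 799 bp and 3.43 at 800 bp or more. Of the 37 sites scoring 8 or more (3.46%), 26 were 100 to 199 bp wide, a class that held 42.7% of all sites. None was 800 bp or more, but only 25 sites were that wide. The other large arms combined also had most such scores, 79, at 100 to 199 bp, a class that held 41.9% of their sites. They had 19 under 100 bp, 38 at 200 to 399 bp, 11 at 400 to 799 bp and none among 71 wider sites. The pattern was thus not found on 3R alone.

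The 12 sites with the highest score on 3R were scattered along the arm, with widths of 98 to 407 bp. The highest, at 3R, 3172312 to 3172433 (122 bp), scored 21.4, with 28.8 in replicate 1 and 13.9 in replicate 2. It ranked 1 on the arm in replicate 1 and 16 in replicate 2, and its replicate 1 peak was 32 bp wide. It stood alone in its 100 kb window, 96760 bp from its nearer neighbour. The site at 20105180 to 20105329 scored 16.2 (13.8 and 18.6), and that at 7947018 to 7947169 scored 15.9 (16.0 and 15.8). The latter showed the smallest gap between the samples among the first 3.

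Crowded surroundings also held some of these. The site at 5934903 to 5935166 scored 13.9 (15.7 and 12.1) and had another site 220 bp away, in a window of 14 sites. The one at 26696356 to 26696474 scored 12.7 (10.98 and 14.5), although its replicate 1 peak was 19 bp wide. In contrast, the site at 12399672 to 12399831, with a score of 11.9 (8.58 and 15.3), was 120783 bp from its nearer neighbour, the farthest of all sites on the arm. Next came 9297247 to 9297344 at 11.6 (10.2 and 13.0), 16843325 to 16843453 at 11.1 (10.7 and 11.6) and 12695023 to 12695379 at 11.04 (9.40 and 12.7). The site at 18492126 to 18492532 scored 10.9, with 14.8 in replicate 1 and 7.01 in replicate 2, where it ranked 132. The last of the 12 were 9472628 to 9472765 with a score of 10.5 (10.3 and 10.7) and 1124840 to 1124980 with 10.3 (8.91 and 11.8). Among the 12, only the sites at 3172312 and 18492126 had scores more than 2-fold apart between the samples.

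A high score did not always come with support from the other sample. Of the 100 highest peaks of replicate 1 on 3R, 82 were shared, against 53 to 77 on the other large arms. In replicate 2, 53 of the 100 highest were shared, within the 51 to 64 of the other arms. The 5 highest peaks of replicate 2 on the arm all lacked a partner. They were at 21019708 to 21019720 (13 bp, score 34.6), 18619783 to 18619957 (175 bp, 32.8), 13442986 to 13443015 (30 bp, 22.5), 1264650 to 1264686 (37 bp, 20.8) and 21071294 to 21071355 (62 bp, 20.5). The nearest replicate 1 peak was between 2682 and 31711 bp away, so these were not near misses of the overlap rule. The highest unshared peak of replicate 1, at 19883124 to 19883172 (49 bp), ranked 7 with a score of 11.1. It was followed by 7094871 to 7094963 (10.1), 7793426 to 7793521 (9.96), 26250943 to 26250973 (9.20) and 18390606 to 18390620 (9.04). The peak at 7793426 missed a replicate 2 peak by 17 bp, whereas the others were 770 to 25139 bp from one.

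Along the arm, ORC2 sites fell into rich and poor stretches in every list. Per Mb the count ranged from 21 to 65 with a median of 38. The richest were 12000000 to 12999999 with 65 sites (79 peaks in replicate 1 and 87 in replicate 2), 5000000 to 5999999 with 64 (80 and 97) and 25000000 to 25999999 with 61 (81 and 90). The poorest were 3000000 to 3999999 with 21 (44 and 43), 6000000 to 6999999 with 22 (39 and 38) and 18000000 to 18999999 with 22 (41 and 33). Of the replicate 1 and 2 peaks, 84.8% and 78.2% were shared at 12000000, against 47.7% and 48.8% at 3000000. These shares are tied to the count that picked these Mb, because a site is made of shared peaks. The Mb at 5000000 had 80.0% and 66.0%, and the poor one at 18000000 had 56.1% and 66.7%. The poor Mb at 3000000, 6000000 and 18000000 had median site scores of 4.34, 3.68 and 4.45, and the medians of the 28 intervals ran from 3.20 to 4.45. The sites of the Mb at 3000000 had a median of 3.36 in replicate 1, near the 3.39 in the middle of the 28, and 4.95 in replicate 2.

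**Figure D3:**
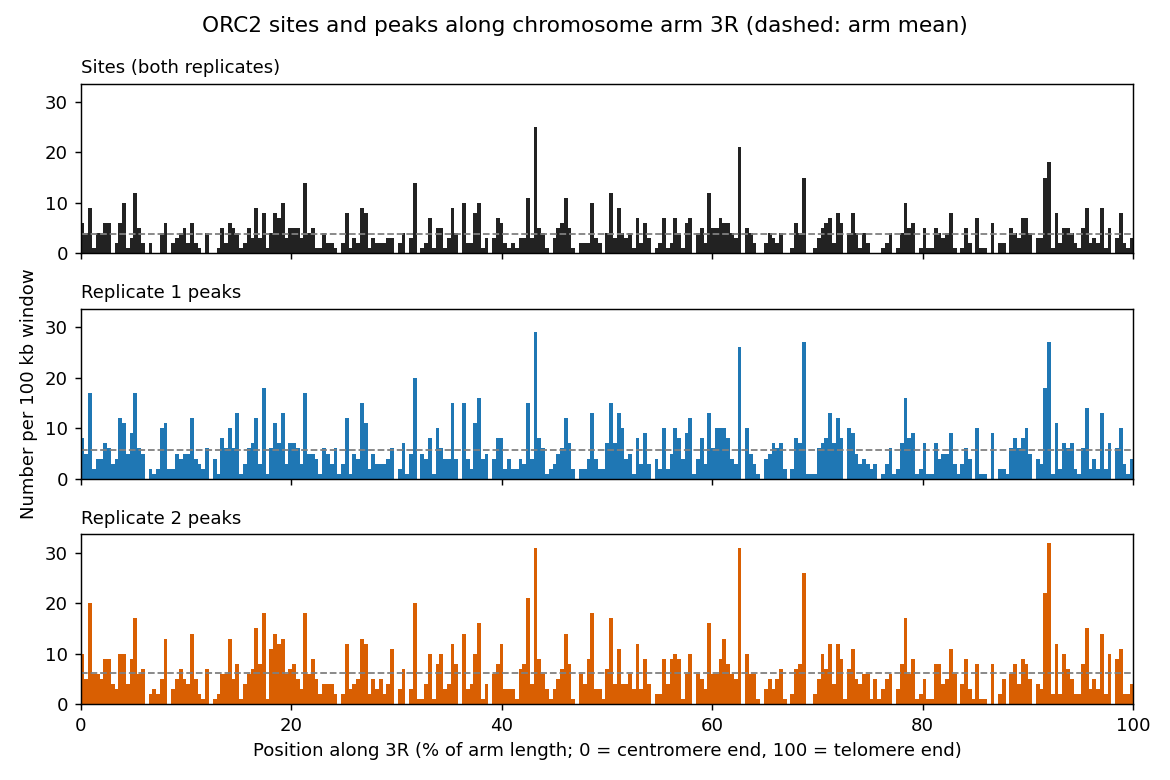
Number of sites (top), replicate 1 peaks (middle) and replicate 2 peaks (bottom) in windows of 100 kb along 3R, as a percent of arm length from the centromere end (0) to the telomere end (100); dashed lines are the arm means of 3.83, 5.77 and 6.20. Many of the same windows stand out in all 3 lists, the sites being made of peaks of both replicates. Up to 25 sites lie in 1 window, and empty windows are scattered over the whole arm.

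In windows of 100 kb, the variance of the count of sites was 3.37 times its mean on 3R, against 2.90 to 3.77 on the other large arms. Of the 279 windows, 39 (14.0%) had no site, against 19.4% over the large arms together and 16.0 to 25.3% on the other arms one by one. In the single lists 18 and 23 windows of 3R had no peak. Rich windows, with at least 2 times the arm's mean and so 8 sites or more, numbered 35 (12.5%, against 13.6% over the large arms). They held 383 of the 1068 sites (35.9%) and 42.8% of the bases in sites. With rich windows set by each arm's own mean, their share of sites was lower for 2R (33.3%). It was higher for 2L, 3L and X, between 40.4 and 45.0%. By the same rule 27 of the 35 were rich in replicate 1, 24 in replicate 2 and 23 in both. Sites are made of peaks of both replicates, so these lists are no independent support for the rich windows. The window counts of the replicates had a Spearman's rho of 0.891 over the 279 windows, which share the same cells and the same sequence.

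Rich windows on 3R mostly stood alone. Of the 35, 29 had no rich neighbour, and the other 6 formed 3 pairs, at 7400000 to 7599999 with 17 sites (26 and 25 peaks in replicates 1 and 2), 10400000 to 10599999 with 18 (27 and 26) and 25500000 to 25699999 with 33 (45 and 54). The count in a window said little of the next one: Spearman's rho between adjacent windows was 0.09 on 3R, against 0.14 on 2L, 0.15 on 2R, 0.24 on 3L and 0.28 on X. Values in the single lists were 0.05 and 0.06 on 3R, lower than on each other arm (0.09 to 0.31). No run of rich windows on 3R was longer than 2 windows. Of the 35 rich windows, only 4 bordered an empty one, at 8800000 (14 sites), 10100000 (10), 17400000 (21) and 19100000 (15). How often other windows bordered an empty one was not counted, so this is not read as a trait of rich windows.

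The richest window, 12000000 to 12099999, had 25 sites (29 and 31 peaks in the replicates), between windows of 3 and 5. Its sites were 130 to 1350 bp wide with a median of 390 bp, and they covered 11.3% of the window, against 0.947% of the arm. The median distance between their facing edges was 1433 bp, and scores ran from 2.08 to 8.54 with a median of 3.27. This window therefore held sites that were close and wide, with scores near the median of the arm.

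The next was 17400000 to 17499999, with 21 sites (26 and 31) of 57 to 723 bp, a median of 220 bp and a median score of 3.28. The pair at 25500000 and 25600000 had 15 sites (18 and 22) and 18 sites (27 and 32), with median scores of 2.54 and 2.74. These medians were below the 3.49 of the arm, and 3 of the 10 widest sites of 3R lay here. The window at 19100000 had 15 sites (27 and 26), those at 5900000 and 8800000 had 14 each (17 and 18, and 20 and 20), and those at 1400000, 14000000 and 16600000 had 12 each (17 and 17, 15 and 17, and 13 and 16). Scores differed among these 10, from a median of 2.54 at 25500000 to 4.37 at 14000000.

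**Figure D4:**
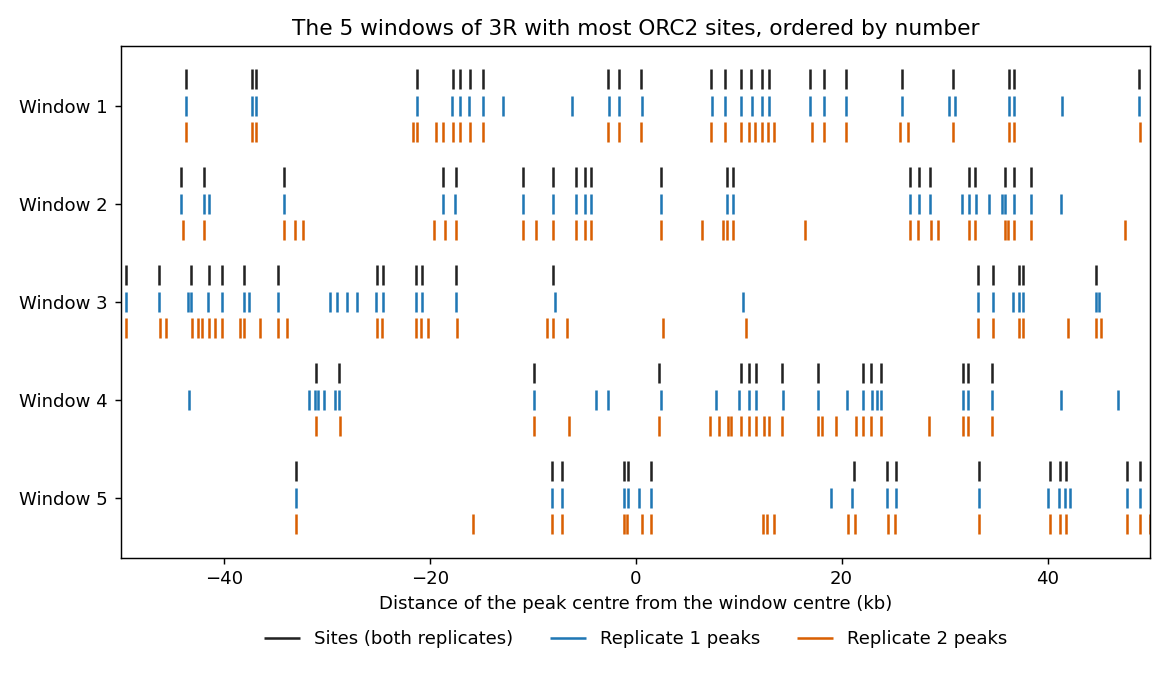
Centres of sites (black) and of replicate 1 (blue) and replicate 2 (orange) peaks in the 5 windows of 3R with most sites, by distance from the window centre (kb); windows 1 to 5 begin at 12000000, 17400000, 25600000, 19100000 and 25500000 and hold 25, 21, 18, 15 and 15 sites. Sites occur in tight groups within each window, and every site has a mark in both replicates by the way the list was made.

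Sites in crowded windows were wider and scored lower. In windows of 10 sites or more, the 240 sites had a median score of 3.19 (interquartile range 2.61 to 4.01) and a median width of 237 bp (139 to 373 bp). In windows of 1 or 2 sites, the 125 sites had a median score of 3.79 (2.93 to 4.93) and a median width of 169 bp (111 to 252 bp). Classes of 3 to 5 and 6 to 9 sites lay between, with scores of 3.59 and 3.52 and widths of 175 and 182 bp. The ranges overlap widely. Shared peaks of the single lists had the same order at the ends, with 3.56 and 3.02 in replicate 1 and 3.87 and 3.33 in replicate 2 for the least and most crowded class. The other large arms together went from 4.08 to 3.56 in score and from 174 to 260.5 bp in width, so the pattern was not found on 3R alone. Sites of 500 bp or more made up 16.25% of the most crowded class and 4.0% of the least, and 89 of the 1068 sites (8.33%, against 9.39% over the large arms).

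**Figure D5:**
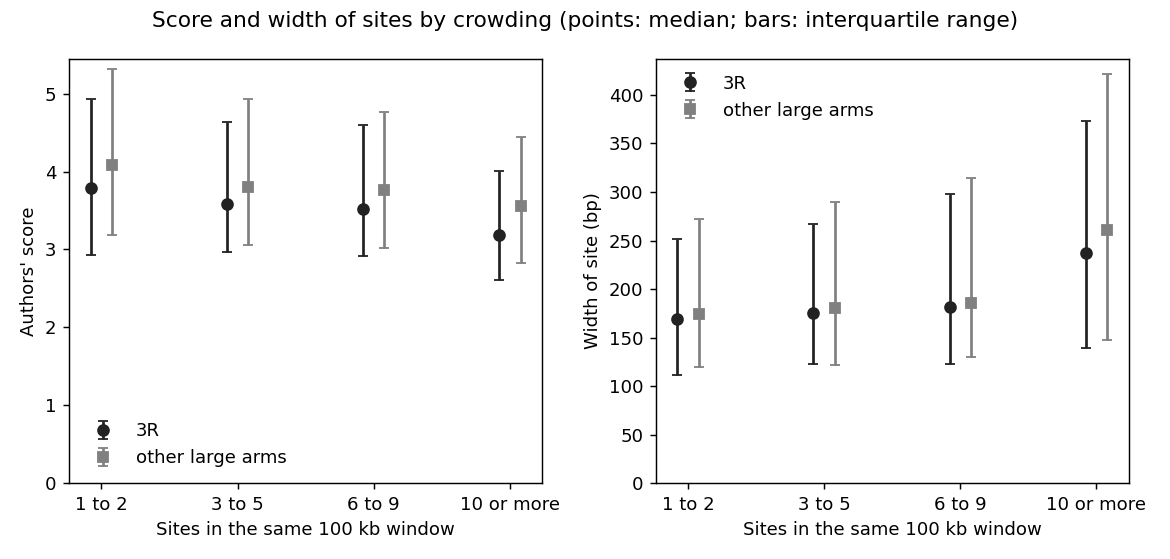
Authors' score (left) and width in bp (right) of sites by the number of sites in their 100 kb window, for 3R (black) and the other 4 large arms together (grey); points are medians and bars interquartile ranges. On 3R the median score falls from 3.79 to 3.19 and the median width rises from 169 to 237 bp between the least and the most crowded windows, with overlapping ranges.

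Of the 10 widest sites of 3R, 5 shared a window or a pair of rich windows with another and 5 did not. The widest, at 25607806 to 25609246 (1441 bp, score 2.68), joined 1 peak of 1429 bp in replicate 1 with 3 peaks in replicate 2. A second, at 25631861 to 25633230 (1370 bp, 2.50), and another, at 25598386 to 25599598 (1213 bp, 3.93), lay within the same pair of rich windows. The sites at 21831623 to 21833028 (1406 bp, 3.43) and 21867358 to 21868704 (1347 bp, 4.86) also shared a window. The other 5 were at 12075218 to 12076567 (1350 bp, 2.79), 23070329 to 23071599 (1271 bp, 4.61), 13526421 to 13527585 (1165 bp, 4.32), 14069454 to 14070607 (1154 bp, 4.39) and 19151654 to 19152796 (1143 bp, 2.83). All 10 were in windows of 8 sites or more. At 19151654 the width rested on replicate 2, whose peak was 1143 bp against 298 bp in replicate 1.

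Neighbouring sites on 3R were a median of 8916 bp apart, measured between facing edges, against 8124 bp on X and 9553 to 10657 bp on the other 3 large arms. Distances under 1 kb made up 206 of 1067 (19.3%, against 18.6% over the large arms). When sites less than 2 kb apart were joined into chains, 474 sites (44.4%) fell into 196 chains of 2 or more, of which 137 were pairs and 3 had 5 or more sites. Chains on the other arms were not counted, so this share is not read as a trait of 3R. The chain with most sites was in the richest window, at 12057021 to 12063245. It had 6 sites of 221 to 916 bp in 6.225 kb, with scores of 2.62 to 4.63. Chains of 5 sites were at 4878159 to 4883756 (5.598 kb, scores 2.89 to 6.42) and 10195618 to 10202056 (6.439 kb, 2.14 to 3.32). Of the 16 chains of 4 sites, the first along the arm were at 5166726 to 5169166 and 5754382 to 5758303. Each of these chains had at least as many peaks as sites in both replicates, which follows from how the sites were made. Sites in chains were wider than single ones, with medians of 208.5 and 175 bp, and their median scores were 3.47 and 3.55.

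At the other extreme, a few sites stood far from any other. Besides those at 12399672 and 3172312, the most isolated were 9085952 to 9086134 (score 2.28, 103805 bp from its nearer neighbour), 23911891 to 23912001 (2.33, 97756 bp) and 15980508 to 15980665 (4.01, 97692 bp). These 5 thus included the highest score of the arm as well as scores below the 2.86 that marks the lower end of its interquartile range.

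Stretches free of sites were found along most of the arm. There were 59 of more than 100 kb, adding up to 10.3 Mb or 36.9% of the arm. The other large arms had between 46 and 59 each, but were shorter, at 21.1 to 24.5 Mb against 27.9 Mb. The longest on 3R was 422 kb, below the longest on each of the other arms (436512 to 823922 bp). Most of these stretches were not empty in the single lists: replicates 1 and 2 each had 112 peaks in them, or 10.9 per Mb. In 6 of the 59 neither list had a peak. A shared peak makes a site, so only unshared peaks can lie in these stretches. They held 112 of the 525 unshared peaks of replicate 1 and 112 of the 644 of replicate 2, in 36.9% of the arm. A stretch without a site is thus in most cases one with some peaks, all of them unmatched by definition. Whether short reads can be placed in these stretches was not tested.

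The longest, 20876194 to 21298276, had 5 peaks in replicate 1 and 9 in replicate 2, with a median width of 27.5 bp. It held the highest and the fifth highest peak of replicate 2 on the arm, and replicate 1 alone had no peak over 207 kb of it. The second, 1834404 to 2176960 (343 kb), had 7 and 5 peaks. The third, 17848873 to 18182191 (333 kb), had 2 and 3, and 232 kb of it had no peak in either list.

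The other 7 of the 10 longest stretches had between 1 and 7 peaks in the replicates combined. The one at 19184913 to 19495261 (310 kb) had 4 and 1, and it began after the last site of the rich window at 19100000. Those at 18580438 to 18883145 (303 kb) and 3341669 to 3635967 (294 kb) had 3 and 2, and 4 and 3; the former held the second highest replicate 2 peak. Next were 23107544 to 23384778 (277 kb, 2 and 5), 6719381 to 6982739 (263 kb, 5 and 0), 23912002 to 24151989 (240 kb, 1 and 0) and 15052462 to 15289140 (237 kb, 2 and 2). In the stretch at 23912002 the only peak was 3 bp wide, and 211 kb were free in both samples.

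The ends of the 3R sequence did not lack ORC2 sites. Its coordinates begin at the end nearer the centromere, and the assembled heterochromatin of the arm is a separate sequence, given below. The first sites were at 22866 to 23077 (score 5.04, with 5.42 and 4.66 in the replicates), 46598 to 46847 (3.31, with 3.31 and 3.32) and 54902 to 55003 (2.97, with 3.15 and 2.79). The 2 Mb at the centromere end had 83 sites or 41.5 per Mb, against 38.2 in the middle and 36.0 in the 2 Mb at the telomere end. On the other large arms the centromere end had 9.0 to 24.5 per Mb against 32.4 to 39.5 in the middle. How much heterochromatin each arm sequence includes was not examined, so these ends may not be alike. Single lists had the same order on 3R, with 64, 57.9 and 50 per Mb in replicate 1 and 72.5, 61.4 and 59.0 in replicate 2 for centromere end, middle and telomere end. With ends of 4 Mb the differences turned: the centromere end was below the middle by 4.79 per Mb (difference -4.79) and the telomere end above it by 1.46.

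Within the centromere end the density was uneven. From the first base on, intervals of 500 kb had 24, 18, 32 and 9 sites, with 36, 24, 54 and 14 peaks in replicate 1 and 47, 30, 50 and 18 in replicate 2. In the last of these intervals the windows at 1500000, 1600000, 1700000, 1800000 and 1900000 had 5, 2, 0, 2 and 0 sites. Going inwards from the telomere, intervals of 500 kb had 17, 20, 18 and 17 sites, an even density in contrast. The last sites of the arm were at 27811446 to 27811607 (score 3.48), 27812584 to 27812773 (4.201) and 27878318 to 27878406 (4.53, with 3.87 and 5.19 in the replicates). The last of these is also the last peak of any list and sets the length used here.

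Sites at the ends resembled those of the middle in width and score. Median widths were 178 bp (centromere end), 188 bp (middle) and 182 bp (telomere end), and median scores were 3.41, 3.51 and 3.48. Of the replicate 1 peaks 65.6%, 67.1% and 74.0% were shared, and of the replicate 2 peaks 58.6%, 63.3% and 61.9%. The assembled heterochromatin of the same arm, a separate sequence in the files, had 7 sites (24 and 27 peaks in the replicates).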

How the data were processed

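Peak lists of 2 ORC2 samples and 1 list of the whole series were used. FlyBase release 5 is the build and PeakSeq the caller, per the file headers; the aligner and the caller's version, threshold and control are not stated in the labels or headers. The score of each peak is as the authors deposited it, with nothing said on what it is relative to. Peaks were called per sample, per the file headers and peak names. No counts are given, so depth is unknown.

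Overlap meant at least 1 bp in common. Peaks were assigned to windows of 100 kb by their centres, including the last partial window. Arm length was the last base of any peak, distances ran between facing edges, and intervals were exact binomial (95%). No test was made. The members, lists and named regions were chosen with earlier results of these data known. The rule named the 12 highest scoring and 10 widest sites, the 10 fullest windows, runs of rich windows, the 10 longest stretches without a site, 5 chains, 5 isolated sites, 3 sites at each end and the 5 highest unshared peaks per replicate. Windows beside empty ones, and classes of width and crowding, were chosen after their values were seen. Alternatives changed the overlap rule, windows, arm ends, score filter and replicate used. The position of sites relative to genes, and their base composition, had been planned but were not run for want of a genome of release 5. Overlap and window counts were tested on simulated data. Software was scipy 1.17.1, pandas 2.3.3, numpy 2.4.6 and, for drawing, matplotlib 3.10.9, under Python 3.11.15.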

Additional observations from a re-analysis of the deposited data

How the results depend on the processing

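A single list is not the set of sites found in both samples, so leaving out a replicate changes most values by construction. The density of 38.3 sites per Mb became 57.8 to 62.1 with 1 replicate left out, 30.9 with sites less than 1 kb apart merged and 16.7 with the 50% of peaks with the highest score. The ratio of variance to mean of window counts (3.37) became 4.16 to 4.63 with a replicate left out, 2.66 with windows of 50 kb, 2.07 after merging and 1.60 with the highest scores, and stayed close with windows of 500 kb (3.65) or shifted by 50 kb (3.23). The centromere end minus the middle (3.26 per Mb) was 6.12 to 11.1 with a replicate left out and reversed to -4.79 with ends of 4 Mb. The telomere end minus the middle (-2.24) was -7.88 to -2.44 and reversed to 1.46; the cause was not tested. Median width (188 bp) became 101 to 105 bp with a replicate left out and 184 bp with the highest scores. The median score (3.49) became 3.23 to 3.50, and the median distance (8916 bp) became 5159 to 5693 bp, or 29989 bp with the highest scores. The shares of replicate 1 and replicate 2 peaks found in both (67.4% and 62.8%) became 46.9% and 43.6% when the overlap had to span 50% of each of the peaks, 75.2% and 71.2% with centres within 500 bp, and 61.4% and 52.2% with the highest scores. Spearman's rho of the scores (0.786) became 0.762 with centres within 500 bp. No paired analysis was possible because the 2 ORC2 samples form a single group and the input was not analysed here. The lists hold no read counts, so depth cannot be used to weigh peaks found once.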

Other observations

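The distance from peaks of 3R found in 1 sample to the nearest site is given beside the part of the arm that lies as close. Bases within 1 kb of a site made up 7.33% of the arm, and those within 10 kb 40.5%. Of the 525 unshared peaks of replicate 1, 128 (24.4%) were within 1 kb of a site and 353 (67.2%) within 10 kb. Of the 644 unshared peaks of replicate 2, 188 (29.2%) were within 1 kb and 457 (71.0%) within 10 kb. More than 50 kb from any site were 38 of the 525 and 29 of the 644. The part of the arm that lies so far from a site was not measured, so these counts are not read as many or few. In the stretches of more than 100 kb without a site, the median width of the unshared peaks was 51 bp in replicate 1 and 61 bp in replicate 2, against 48 and 52 bp elsewhere on the arm. Their median score was 3.13 and 3.58 there, against 2.91 and 3.22 elsewhere. These values were drawn up after the data were seen and were not tested.

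The pairs of 3R peaks with scores more than 2-fold apart had unequal widths in the 2 samples. At 16676233 to 16676286 in replicate 1 the score was 2.80 over 54 bp, against 7.09 over 163 bp in replicate 2. At 11153988 to 11154013 it was 2.58 over 26 bp, against 5.19 over 82 bp. The other 2, at the sites from 18492126 and 3172312, scored higher in replicate 1, over 70 bp and 32 bp, than in replicate 2, over 405 bp and 122 bp. The replicate 1 peak was the narrower in these 4 pairs and in 575 of all 1035 pairs (55.6%).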
